A study of Homo sapiens with 51 samples.

Results

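The hypoxia inducible factor (HIF) pathway was followed through 10 genes in differentiating human embryonic stem cells. They are the oxygen-regulated subunits EPAS1 and HIF1A, the partner subunit ARNT2, the oxygen sensors EGLN1 and EGLN3, and the target genes VEGFA, ADM, NDRG1, BNIP3 and ANKRD37. The genes were chosen by symbol, and all 10 were found among the 58051 gene rows of the count table and passed the filter on low counts. The cells were of the H1 line, an established line of human embryonic stem cells, and grew on Matrigel. One set of cultures received BMP4 alone at 50 ng/mL and another received Activin at 100 ng/mL with BMP4 at 10 ng/mL. Each was sampled at 1, 6, 12, 24, 36, 48, 72 and 96 h, and untreated cells in mTeSR1 medium were sampled at 0 h. All treated cells, in both sets, were also moved to TeSR E5 medium with insulin, FGF2 and a compound spelled LY29004 in the labels. There were 3 libraries in each of the 17 groups and 51 libraries in all. The 2 treatments differ in Activin and in the dose of BMP4, so the effect of either factor alone cannot be told apart. No untreated cells were sampled later, so treatment, medium and time in culture cannot be told apart in a comparison with 0 h. The labels state no oxygen tension.

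HIF is a dimer of an oxygen-regulated alpha subunit and a stable beta subunit. HIF1A encodes HIF-1α, which most cells express, and EPAS1 encodes HIF-2α, which is known from endothelium, trophoblast and other selected cell types. ARNT and ARNT2 encode beta subunits. In the presence of oxygen, prolyl hydroxylases such as those encoded by EGLN1 and EGLN3 mark the alpha subunits for capture by the VHL protein and destruction by the proteasome. The alpha subunits are therefore regulated largely as proteins, which were not measured. Stabilised HIF binds hypoxia response elements, whose core is ACGTG or GCGTG, and activates genes of glycolysis, blood vessel growth and mitochondrial turnover. EGLN3, VEGFA, ADM, NDRG1, BNIP3 and ANKRD37 are textbook HIF targets, and EGLN1 responds to HIF as well.

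Promoter windows of 250 bases before to 50 bases after RefSeq start sites (build GRCh38.p14) were used for 7 of the 10 genes. Those of EPAS1, HIF1A, BNIP3 and ADM are shown because the expression results turn on these genes. No window is reported here for ARNT2, VEGFA or NDRG1, and any window of NDRG1 was left out before counting. The 250 bases before the start are printed 5′ to 3′ on the strand of the gene, with matches to ACGTG or GCGTG on either strand in capitals. On the opposite strand these cores read CACGT and CACGC.
EPAS1, chr2:46297157-46297406, plus strand: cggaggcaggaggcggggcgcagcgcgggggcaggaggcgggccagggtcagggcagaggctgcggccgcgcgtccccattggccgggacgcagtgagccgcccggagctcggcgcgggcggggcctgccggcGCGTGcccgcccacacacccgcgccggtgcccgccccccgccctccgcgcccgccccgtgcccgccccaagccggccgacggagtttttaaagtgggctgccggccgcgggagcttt
HIF1A, chr14:61695263-61695512, plus strand: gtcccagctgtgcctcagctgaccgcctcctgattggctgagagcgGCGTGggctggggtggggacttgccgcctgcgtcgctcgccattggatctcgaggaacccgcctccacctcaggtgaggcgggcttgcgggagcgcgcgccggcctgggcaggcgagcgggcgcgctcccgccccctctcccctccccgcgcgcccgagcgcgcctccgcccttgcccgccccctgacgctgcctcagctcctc
BNIP3, chr10:131981924-131982173, minus strand: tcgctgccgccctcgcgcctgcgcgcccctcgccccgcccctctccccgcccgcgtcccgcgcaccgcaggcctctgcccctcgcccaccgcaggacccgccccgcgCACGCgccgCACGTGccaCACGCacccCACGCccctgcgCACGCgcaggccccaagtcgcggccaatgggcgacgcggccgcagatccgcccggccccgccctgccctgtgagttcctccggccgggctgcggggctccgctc
ADM, chr11:10304823-10305072, plus strand: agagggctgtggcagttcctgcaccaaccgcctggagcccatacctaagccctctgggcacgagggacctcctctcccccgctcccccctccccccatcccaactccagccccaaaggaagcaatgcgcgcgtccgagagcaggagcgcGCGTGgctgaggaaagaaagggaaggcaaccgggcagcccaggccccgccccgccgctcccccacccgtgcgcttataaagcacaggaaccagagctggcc

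The core was found once in the windows of EPAS1, HIF1A, EGLN1 and ADM. In BNIP3 there were 6 matches, 4 of GCGTG and 2 of ACGTG, with both ACGTG matches from a single CACGTG that reads the same on each strand. ANKRD37 had 3 matches of ACGTG, 2 of them again from a single CACGTG. No match lay in the window of EGLN3 or in that of a second HIF1A start. At least 1 match was present in 48.4% of the 35116 promoter windows in the RefSeq table. Among the 11657 windows of at least 65% GC the share was 66.7%. All windows reported here had at least 65% GC except that of the second HIF1A start. At least 6 matches were present in 0.923% of all windows. A match describes the letters only and was not tested for binding.

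Library totals ran from 22788905 to 30354633 counts, with a median of 24944617. Levels are given as CPM, counts scaled to a common library total with trimmed-mean factors. Errors of levels and shares are SD over the 3 libraries of a group. The labels name no separate cultures or passages, so p-values measure only the spread between these libraries. In 3 groups 1 library stood apart from the other 2, namely replicate 1 of BMP4 at 12 h and, of Activin+BMP4, replicate 2 at 48 h and replicate 3 at 96 h. All 12 markers of pluripotent cells had counts in untreated cells, 11 of them above 5 CPM, and their summed level there was 10851 to 11132 CPM. At 96 h the sum was 4479 to 4758 CPM under BMP4 and 5544 to 5860 CPM under Activin+BMP4. Mitochondrially encoded genes took 0.967% ± 0.389 of counts at 96 h with BMP4 and 1.302% ± 0.310 with Activin+BMP4, against 2.03% ± 0.226 in untreated cells (n = 3 each). Their share was 0.917% ± 0.305 with BMP4 and 0.692% ± 0.158 with Activin+BMP4 at 72 h. Of the 13 genes 10 and 13 were then called lower than in untreated cells, beside 16.9% and 21% of all genes called either way. The part of this share in the results at these times was not tested. A gene is called changed where the Benjamini-Hochberg adjusted p of edgeR's quasi-likelihood test over 19603 genes was under 0.05 and the level differed by at least 2-fold. Errors of log2 changes are SE worked back from that test, as the size of the change divided by the square root of its F statistic.

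EPAS1 (ENSG00000116016, chr2:46293667-46386703, GRCh38) was low in untreated stem cells and reached a high level in cells given BMP4 without Activin. The 3 BMP4 libraries had 6.51, 8.36 and 9.07 CPM at 36 h, against 2.23, 2.76 and 2.84 CPM in the Activin+BMP4 libraries. At 48 h the libraries with BMP4 had 110.1, 118 and 112 CPM and those with Activin+BMP4 had 1.57, 1.45 and 1.39 CPM. Every BMP4 library lay above every Activin+BMP4 library from 36 h on. The levels were 397, 421 and 436 CPM under BMP4 at 72 h, against 1.99, 1.61 and 1.88 CPM under Activin+BMP4. By 96 h BMP4 libraries had reached 473, 497 and 429 CPM, while Activin+BMP4 libraries had 3.48, 2.34 and 2.33 CPM. Untreated cells had 4.34, 3.74 and 3.82 CPM, between the 96 h levels of the treatments.

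The EPAS1 difference between BMP4 and Activin+BMP4 was 3.06-fold at 36 h (log2 1.61 ± 0.15 SE; edgeR quasi-likelihood test, Benjamini-Hochberg adjusted p = 1.58e-11). It widened to 76.7-fold at 48 h (log2 6.26 ± 0.12), 229-fold at 72 h (log2 7.84 ± 0.11) and 172-fold at 96 h (log2 7.43 ± 0.10). For the last of these the Benjamini-Hochberg adjusted p of the edgeR quasi-likelihood test was 1.51e-40. Without the libraries that stand apart the differences were log2 6.25 at 48 h and 7.33 at 96 h. At 1, 6, 12 and 24 h the libraries of the treatments overlapped and EPAS1 was not called. Bulk RNA does not tell a larger number of EPAS1-expressing cells from more EPAS1 RNA per cell.

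Against untreated cells, EPAS1 rose 2.02-fold with BMP4 at 36 h, 28.5-fold at 48 h, 105-fold at 72 h and 117-fold at 96 h. The 36 h value lies at the 2-fold threshold, and the call was lost when any of 4 single libraries was left out (log2 0.91 to 0.99). The 4 are untreated replicates 2 and 3 and BMP4 36 h replicates 2 and 3. At 1 h the EPAS1 libraries of both treatments overlapped with those of untreated cells. In both treatments EPAS1 was lower at 6 and 12 h than in untreated cells, which had 3.97 ± 0.326 CPM. With BMP4 it had 2.49 ± 0.212 CPM at 6 h and 2.14 ± 0.734 CPM at 12 h. With Activin+BMP4 these levels were 2.30 ± 0.132 and 2.25 ± 0.239 CPM. No library overlapped with untreated cells at these times, and EPAS1 was not called. With Activin+BMP4 EPAS1 fell 2.69-fold at 48 h (log2 -1.43 ± 0.20) and 2.17-fold at 72 h (log2 -1.12 ± 0.19). At 96 h it was 1.47-fold lower than in untreated cells and not called. Both sets of comparisons use the same 3 untreated libraries.

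The steps between sampling times place the climb of EPAS1 with BMP4. It rose by log2 1.42 ± 0.15 between 24 and 36 h, by 3.82 ± 0.09 between 36 and 48 h and by 1.88 ± 0.07 between 48 and 72 h. The largest step therefore fell between 36 and 48 h. From 72 to 96 h the libraries overlapped. With Activin+BMP4 none of the 7 steps was called for EPAS1.

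**Figure D1:**
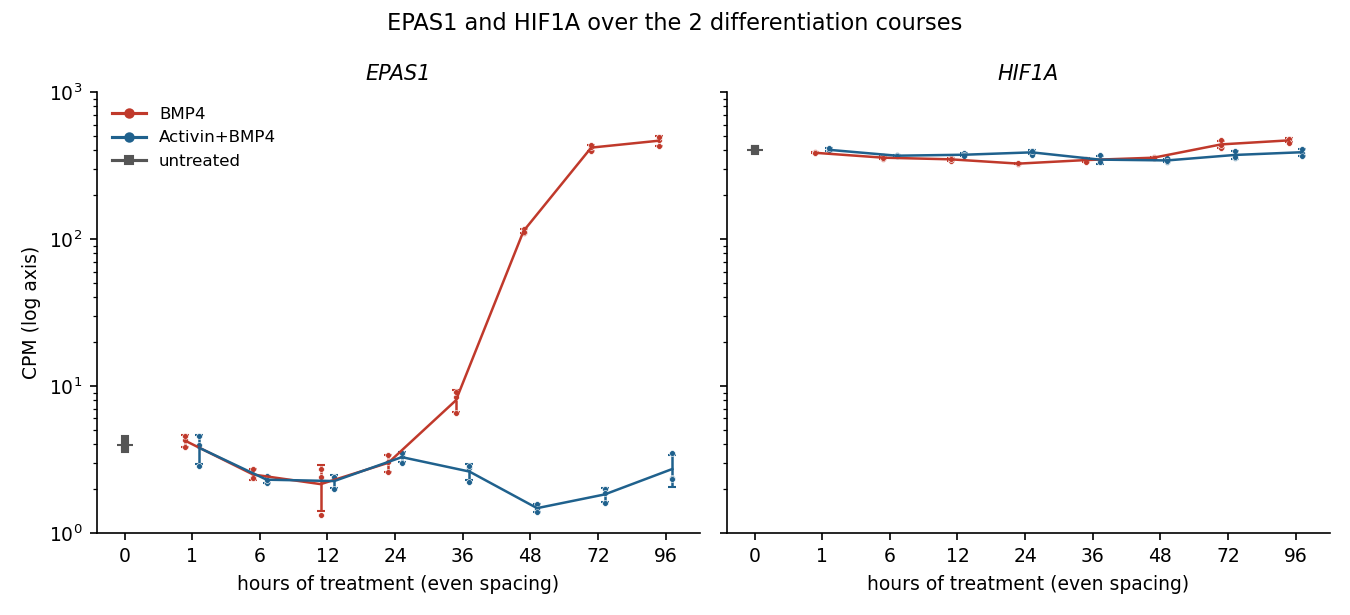
EPAS1 (left) and HIF1A (right) in CPM on a log axis against hours of treatment, with BMP4 in red, Activin+BMP4 in blue and untreated cells in grey. Points are libraries, and lines and bars are the mean and SD of 3; EPAS1 parts between the treatments from 36 h and reaches 466 ± 34.7 CPM under BMP4 at 96 h against 2.72 ± 0.662 CPM under Activin+BMP4, while HIF1A group means stay between 326 and 469 CPM.

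HIF1A (ENSG00000100644, chr14:61695513-61748259) was high in every group and never differed by 2-fold. At 96 h the libraries had 476, 478 and 452 CPM under BMP4, 387, 412 and 369 CPM under Activin+BMP4, and 409, 412 and 397 CPM in untreated cells. The BMP4 libraries were the highest and did not overlap with either other group. The group means spanned 326 CPM (BMP4 24 h) to 469 CPM (BMP4 96 h), a 1.44-fold range. Small shifts did pass the adjusted p in 15 of the 24 comparisons between treatments or with untreated cells, the largest of them 1.25-fold. With BMP4, HIF1A was 1.19-fold lower than with Activin+BMP4 at 24 h (log2 -0.25 ± 0.04), and 1.18-fold higher at 72 h (log2 0.24 ± 0.04). It was 1.204-fold higher at 96 h (log2 0.27 ± 0.04; edgeR quasi-likelihood test, Benjamini-Hochberg adjusted p = 3.49e-07). Exons of HIF1A overlap those of the antisense RNA HIF1A-AS1 and of AL137129.1 over 2.27% and 2.87% of their length, and both had under 1% of its counts.

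Divided by exon length, the alpha subunits drew near each other only with BMP4. At 96 h EPAS1 stood at 63.8 ± 4.75 CPM per kb and HIF1A at 91.0 ± 2.86 CPM per kb with BMP4, so HIF1A was 1.43 times EPAS1. With Activin+BMP4 at that time the levels were 0.372 ± 0.0906 and 75.6 ± 4.27 CPM per kb, a 203-fold gap. Untreated cells had 0.543 ± 0.0447 CPM per kb of EPAS1 and 78.8 ± 1.59 CPM per kb of HIF1A, a 145-fold gap. The per-length gap with BMP4 was 61.1-fold at 36 h, 4.47-fold at 48 h and 1.49-fold at 72 h. Exon lengths come from GENCODE gene models and not from the transcripts used by these cells, so the ratios hold only as far as those lengths do.

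The ratio of EPAS1 to HIF1A within a library, on a log2 CPM scale, compares the genes free of library scaling. At 96 h it was -0.01, 0.06 and -0.08 in the BMP4 libraries and -6.79, -7.45 and -7.29 in the Activin+BMP4 libraries. The BMP4 minus Activin+BMP4 difference was 1.61, 6.19, 7.59 and 7.17 at 36, 48, 72 and 96 h. The libraries did not overlap at these 4 times, and each gave a two-sided exact permutation p of 0.1, the smallest that 3 against 3 libraries can give, or 0.2 adjusted over the 8 times. At 1, 6, 12 and 24 h the differences were 0.24, 0.16, -0.03 and 0.12 and the libraries overlapped.

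In order of EPAS1 level, BMP4 96 h and BMP4 72 h came first with overlapping libraries, followed by BMP4 48 h and BMP4 36 h, each clear of its neighbours. The other 13 groups had means of 1.47 to 4.23 CPM, and of the 12 neighbouring pairs among them all but Activin+BMP4 48 h and 72 h overlapped. For HIF1A, BMP4 96 h and 72 h again came first and overlapped, and untreated cells came next without overlap. Of the 16 neighbouring pairs of HIF1A groups 14 overlapped, so most of its order is not resolved.

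The genes whose course was most like that of EPAS1 over the 17 group means of log2 CPM were P2RY6 (Pearson r 0.980), SBSPON (0.979), VTCN1 (0.974), KANK1 (0.971), DOK4 (0.967) and KIAA1217 (0.961), from 4130 genes that qualified. P2RY6, a receptor for extracellular nucleotides, had 12.9 ± 1.14 CPM under BMP4 at 96 h and 0.0247 ± 0.0428 CPM under Activin+BMP4. DOK4, an adaptor of receptor tyrosine kinases, had 599 ± 41.5 CPM under BMP4 and 21.1 ± 2.11 CPM under Activin+BMP4 at that time. VTCN1, an immune checkpoint ligand, had 23.7 ± 3.63 CPM under BMP4 and 0.163 ± 0.0333 CPM under Activin+BMP4. The correlation takes no account of the size of a change. KANK1 had 61.6 CPM in untreated cells and 113 CPM under BMP4 at 96 h. For SBSPON these levels were 3.31 and 9.89 CPM, and for KIAA1217 23.7 and 78.3 CPM. For HIF1A the nearest were SCMH1 (r 0.909), ROBO2 (0.836), ST6GALNAC3 (0.818), SH3BP5 (0.817), ADAM12 (0.807) and CCBE1 (0.793). Only genes with a range of at least 1 on the log2 scale qualified, which is wider than the 1.44-fold range of HIF1A. Genes as flat as HIF1A could therefore not appear. The correlations are descriptions over groups that share their libraries.

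ARNT2 (ENSG00000172379, chr15:80404350-80597937), a beta subunit known from brain, ended lower than in untreated cells in both treatments, and lowest with Activin+BMP4. At 6 h it had been slightly higher, with 34.9 ± 1.79 CPM under BMP4 and 33.7 ± 1.40 CPM under Activin+BMP4. Untreated cells had 31.1 ± 0.961 CPM, and neither rise was called. At 96 h the libraries had 23.5, 23.8 and 25.1 CPM under BMP4, 17.3, 17.5 and 17.9 CPM under Activin+BMP4, and 31.8, 31.5 and 30.0 CPM in untreated cells. The groups did not overlap. ARNT2 was 1.37-fold higher with BMP4 than with Activin+BMP4 (log2 0.46 ± 0.05; edgeR quasi-likelihood test, Benjamini-Hochberg adjusted p = 1.24e-09), under the 2-fold threshold. Its common relative ARNT, from the list of HIF machinery, stood higher than in untreated cells in both treatments at 96 h, with 62.7 ± 1.63 CPM under BMP4 and 75.2 ± 0.323 CPM under Activin+BMP4 against 40.7 ± 0.104 CPM. These too were below 2-fold.

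EGLN3 (ENSG00000129521, chr14:33924231-34462774), a prolyl hydroxylase gene, gave an early pulse in both treatments. At 6 h it had 95.1, 97.7 and 97.0 CPM under BMP4, 89.6, 78.0 and 75.8 CPM under Activin+BMP4, and 37.7, 40.3 and 35.6 CPM in untreated cells. Every treated library was above every untreated one. The rise over untreated cells was 2.55-fold with BMP4 (log2 1.35 ± 0.07) and 2.14-fold with Activin+BMP4 (log2 1.10 ± 0.07). From there EGLN3 declined, to 36.5 ± 2.62 CPM at 48 h and 37.1 ± 2.24 CPM at 72 h with BMP4. At 96 h it was 1.48-fold higher with BMP4 than with Activin+BMP4 (47.0 ± 4.08 against 31.8 ± 1.02 CPM), and at 48 h 1.47-fold lower, with no overlap at either time and neither called.

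EGLN1 (ENSG00000135766, chr1:231363751-231425044), the main oxygen sensor of most cells, rose late in both treatments. It had 31.4, 32.1 and 28.9 CPM under BMP4 at 96 h, 28.9, 32.1 and 33.8 CPM under Activin+BMP4, and 11.4, 12.8 and 12.7 CPM in untreated cells. The treatments overlapped and both were clear of untreated cells. The rise over untreated cells was 2.51-fold with BMP4 (log2 1.33 ± 0.08) and 2.57-fold with Activin+BMP4 (log2 1.36 ± 0.08; 1.31 without the libraries that stand apart). It came earlier with Activin+BMP4: at 72 h EGLN1 was at 21.2 ± 2.24 CPM under BMP4 and 29.8 ± 2.35 CPM under Activin+BMP4, a level 1.41-fold lower in BMP4 libraries (log2 -0.49 ± 0.08; edgeR quasi-likelihood test, Benjamini-Hochberg adjusted p = 8.79e-07), which is under 2-fold.

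BNIP3 (ENSG00000176171, chr10:131966455-131982013), a mitochondrial protein that marks mitochondria for removal, ran opposite to EPAS1 between the treatments. At 72 h it had 38.3, 42.5 and 42.1 CPM under BMP4, against 82.5, 97.7 and 118 CPM under Activin+BMP4. At 96 h the levels were 33.6, 36.5 and 39.0 CPM under BMP4 and 113, 125 and 162 CPM under Activin+BMP4. All Activin+BMP4 libraries were above all BMP4 libraries at both times, and all treated libraries were above the untreated ones at 21.5, 25.3 and 22.2 CPM. BNIP3 was 2.43-fold lower with BMP4 than with Activin+BMP4 at 72 h (log2 -1.28 ± 0.10) and 3.67-fold lower at 96 h (log2 -1.87 ± 0.10; edgeR quasi-likelihood test, Benjamini-Hochberg adjusted p = 1.53e-20). The highest library was the one that stands apart, and without it and the other 2 the 96 h value was log2 -1.71.

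Against untreated cells BNIP3 rose 4.33-fold at 72 h and 5.799-fold at 96 h with Activin+BMP4 (log2 2.11 ± 0.10 and 2.54 ± 0.10). With BMP4 it was 1.78-fold and 1.58-fold higher at these times and not called. In both treatments BNIP3 first declined. Its lowest level was 10.9 ± 1.26 CPM under BMP4 at 24 h, 2.11-fold below untreated cells (log2 -1.08 ± 0.12), a call lost without BMP4 24 h replicate 2, when it came just under 2-fold. A processed pseudogene, BNIP3P1, is nearly identical to BNIP3, and how reads that match both were counted is not stated.

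NDRG1 (ENSG00000104419), a stress and differentiation gene, was raised by 6 h in both treatments and was highest at 96 h. At 6 h it had 7.24, 6.34 and 7.13 CPM under BMP4, 6.38, 7.12 and 6.70 CPM under Activin+BMP4, and 2.33, 2.98 and 2.85 CPM in untreated cells. At 96 h BMP4 libraries had 20.4, 18.6 and 16.2 CPM and Activin+BMP4 libraries 10.6, 10.98 and 13.02 CPM. The treatments overlapped at 6 h and did not overlap at 96 h, and both were clear of untreated cells at both times. Against untreated cells the rise was 2.54-fold with BMP4 and 2.48-fold with Activin+BMP4 at 6 h, and 6.75-fold with BMP4 (log2 2.76 ± 0.11) and 4.23-fold with Activin+BMP4 (log2 2.08 ± 0.12) at 96 h. The last interval, 72 to 96 h, brought a rise of log2 1.44 ± 0.10 with BMP4. At 96 h NDRG1 was 1.60-fold higher with BMP4 than with Activin+BMP4, which was not called.

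ANKRD37 (ENSG00000186352, chr4:185396021-185400628), a small ankyrin repeat gene, was too low to follow, with group means of 0.527 to 1.49 CPM and overlap between all 16 neighbouring groups in its order. It was not called in any of the 39 comparisons. Its decline from 1 to 6 h with Activin+BMP4 (log2 -1.03) was called under 3 other settings (log2 -1.03 to -1.01), and a difference between 48 and 72 h with Activin+BMP4 (log2 0.81) was called without replicate 1 of either time (log2 1.78 and 1.13). Of its exon length 35.2% overlaps exons of UFSP2 on the opposite strand, which had 26.0 times its counts, and whether counting used strand is not stated. Its values are therefore uncertain.

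**Figure D2:**
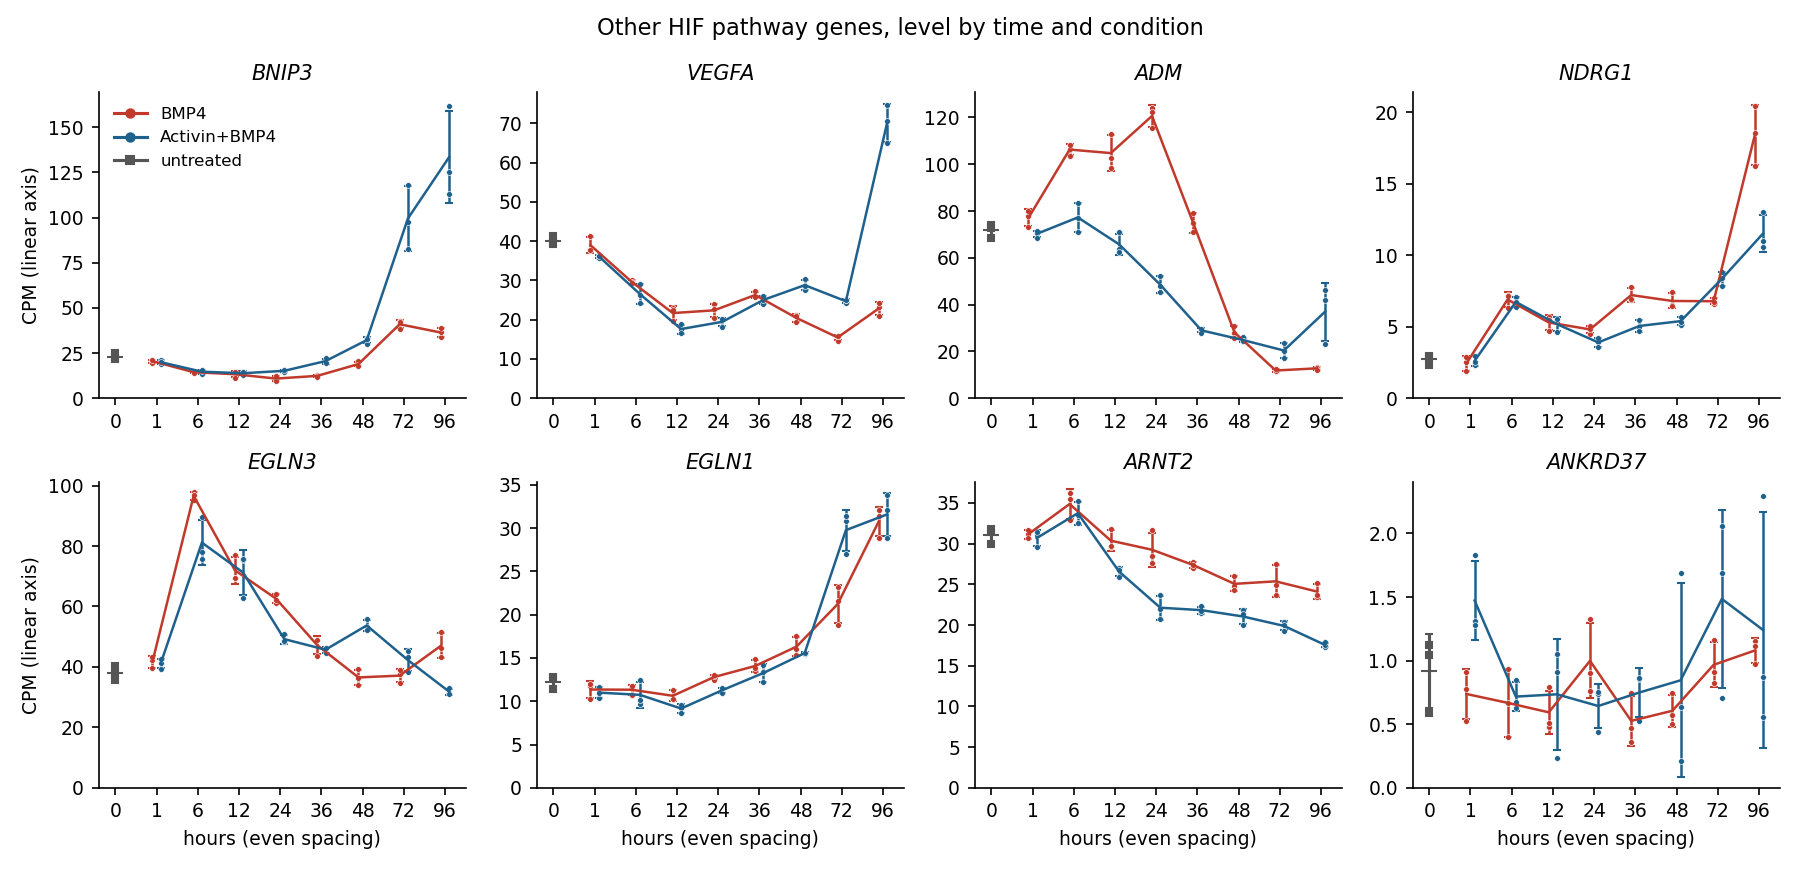
Levels of the other 8 genes in CPM on linear axes that start at 0, against hours of treatment, with BMP4 in red, Activin+BMP4 in blue and untreated cells in grey. Points are libraries, and lines and bars are the mean and SD of 3; BNIP3 and VEGFA end higher with Activin+BMP4 (133 ± 25.3 and 70.1 ± 4.86 CPM), ADM peaks with BMP4 at 24 h (121 ± 4.54 CPM), and EGLN3 peaks at 6 h in both treatments.

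VEGFA (ENSG00000112715, chr6:43770184-43786487), the main growth factor for blood vessels, fell in both treatments, and its later rise was called with Activin+BMP4. At 12 h it had 23.0, 19.6 and 22.4 CPM under BMP4 and 17.4, 16.6 and 18.8 CPM under Activin+BMP4, against 39.3, 39.7 and 41.3 CPM in untreated cells. At 72 h it was at 14.7, 15.97 and 15.8 CPM under BMP4 and 24.2, 25.0 and 24.9 CPM under Activin+BMP4. In the last day the Activin+BMP4 libraries climbed to 74.7, 70.5 and 65.02 CPM, above all others, while the BMP4 libraries had 20.9, 23.3 and 24.3 CPM at 96 h. Relative to Activin+BMP4, VEGFA at 96 h was 3.06-fold lower in BMP4 libraries (log2 -1.61 ± 0.06; edgeR quasi-likelihood test, Benjamini-Hochberg adjusted p = 3.16e-25; log2 -1.66 without the libraries that stand apart). The step from 72 to 96 h was log2 0.57 ± 0.07 with BMP4, under 2-fold and without overlap of libraries, and log2 1.504 ± 0.06 with Activin+BMP4. Against untreated cells VEGFA was 2.28-fold lower at 12 h and 2.06-fold lower at 24 h with Activin+BMP4 and 2.59-fold lower at 72 h with BMP4, and its rise to 1.75-fold above untreated cells at 96 h with Activin+BMP4 was not called.

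ADM (ENSG00000148926, chr11:10304680-10307397), the vasodilator peptide adrenomedullin, changed sides between the treatments. At 24 h it had 124, 122 and 115.5 CPM under BMP4 and 52.4, 48.0 and 45.2 CPM under Activin+BMP4, against 72.7, 74.2 and 68.3 CPM in untreated cells. The untreated libraries lay between the treatments. At 96 h the BMP4 libraries had 13.4, 12.7 and 12.2 CPM, and those with Activin+BMP4 had 46.2, 41.8 and 23.0 CPM. ADM was 2.48-fold higher with BMP4 at 24 h (log2 1.31 ± 0.11) and 2.58-fold higher at 36 h (log2 1.37 ± 0.12), and 2.89-fold lower at 96 h (log2 -1.53 ± 0.13; edgeR quasi-likelihood test, Benjamini-Hochberg adjusted p = 2.14e-13). The lowest Activin+BMP4 library at 96 h is the one that stands apart. Without it and the other 2 the 96 h difference was log2 -1.78, and a rise of ADM from 72 to 96 h with Activin+BMP4 was called (log2 1.12, against 0.86 with all libraries).

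With BMP4, ADM fell by 1.41 ± 0.12 on the log2 scale between 36 and 48 h and by 1.25 ± 0.14 between 48 and 72 h, over the interval in which EPAS1 rose. At 96 h it was 5.62-fold below untreated cells with BMP4 (log2 -2.49 ± 0.13). With Activin+BMP4 it was 3.53-fold below untreated cells at 72 h (log2 -1.82 ± 0.12) and 1.94-fold below at 96 h, the second not called. The 96 h value was called when replicate 1 or replicate 2 of Activin+BMP4 at 96 h was left out (log2 -1.15 and -1.06).

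The receptors for these peptides also differed at 96 h. Of the list of VEGF and ADM ligands and receptors, 6 of 13 tested genes were higher with BMP4 than with Activin+BMP4 and 1 was lower, where 15.6% of all genes were called in either direction, with a median log2 difference of 0.29 against 0.00 over all genes. KDR, the main signalling receptor of VEGFA, had 927, 919 and 707 CPM under BMP4 and 187, 193 and 185 CPM under Activin+BMP4, 4.52-fold higher with BMP4 (log2 2.18 ± 0.07). FLT1, a second VEGFA receptor, had 280, 257 and 200.2 CPM under BMP4 and 99.5, 101 and 119 CPM under Activin+BMP4, while untreated cells had 237, 238 and 239 CPM. The co-receptor NRP1 had 114, 124 and 104 CPM under BMP4 and 55.6, 55.6 and 35.0 CPM under Activin+BMP4. For none of the 3 did libraries of the treatments overlap at 96 h, and all 3 were then higher with BMP4, where VEGFA was lower. At 48 h VEGFA was also lower with BMP4 (20.4 ± 0.921 against 28.8 ± 1.34 CPM), and NRP1 was then lower too.

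Among the low genes of that list, the ligand PGF had 9.48 ± 1.24 CPM under BMP4 and 2.34 ± 0.0709 CPM under Activin+BMP4, and VEGFC had 1.55 ± 0.319 CPM under BMP4 and 0.361 ± 0.201 CPM under Activin+BMP4. CALCRL, the adrenomedullin receptor, had 2.26 ± 0.450 CPM under BMP4 and 0.818 ± 0.199 CPM under Activin+BMP4. The single lower gene was ACKR3, a scavenger receptor for chemokines and adrenomedullin, which had 18.6, 20.5 and 17.03 CPM under BMP4 and 139, 137 and 75.7 CPM under Activin+BMP4, 6.25-fold lower with BMP4 (log2 -2.64 ± 0.15). At 48 h 4 genes of the list had been called between the treatments, not all of them named here, where 9.25% of all genes were. Without the libraries that stand apart 2 were then higher with BMP4 and 2 lower. ACKR3 had been called higher with BMP4 at 48 h (19.6 ± 2.15 CPM, against 6.96 ± 0.373 CPM under Activin+BMP4). NRP1 had then been called lower with BMP4 (9.19 ± 0.898 CPM, against 24.9 ± 0.651 CPM under Activin+BMP4), and so had PGF (1.24 ± 0.150 CPM, against 2.62 ± 0.562 CPM under Activin+BMP4). Without the libraries that stand apart 7 genes of the list were higher at 96 h and 1 was lower.

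**Figure D3:**
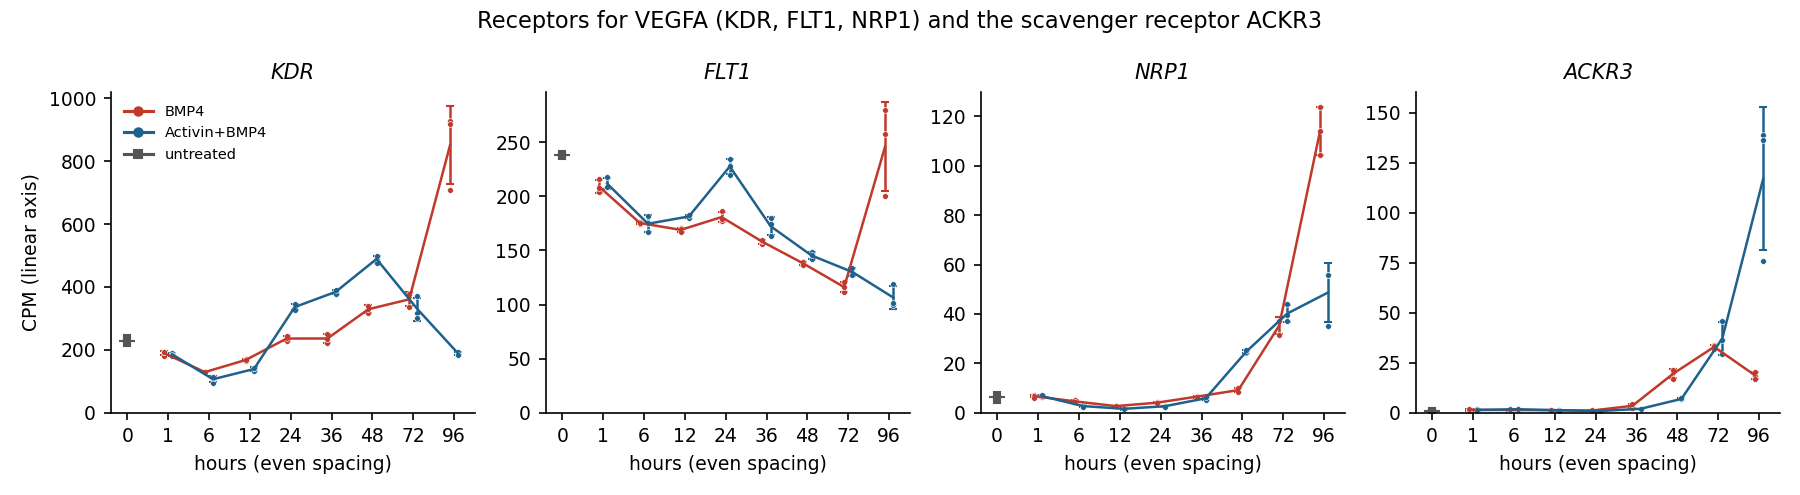
Levels of KDR, FLT1, NRP1 and ACKR3 in CPM on linear axes that start at 0, against hours of treatment, with BMP4 in red, Activin+BMP4 in blue and untreated cells in grey. Points are libraries, and lines and bars are the mean and SD of 3; at 96 h KDR is at 851 ± 125 CPM under BMP4 and 188 ± 4.15 CPM under Activin+BMP4, and ACKR3 at 18.7 ± 1.74 CPM with BMP4 against 117 ± 35.7 CPM with Activin+BMP4.

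Counted together, the 10 genes gave 10 calls between BMP4 and Activin+BMP4 over the 8 times, 6 of them higher with BMP4 and 4 lower. No gene was called at 1 h, 6 h or 12 h, when 0.0051%, 0.505% and 1.42% of all tested genes were. ADM was the single call at 24 h, where 4.01% of all genes were called. EPAS1 and ADM were called at 36 h (5.58% of all genes) and EPAS1 alone at 48 h (9.25%). At 72 h EPAS1 and BNIP3 were called (9.63%), and at 96 h EPAS1, VEGFA, ADM and BNIP3 were (15.6%). The median log2 difference of the 10 genes at 96 h was 0.11, against 0.00 over all genes.

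Against untreated cells the 10 genes gave 16 calls with BMP4 over the 8 times. None was called at 1 h or 12 h, where 1.21% and 5.62% of all genes were. At 6 h EGLN3 and NDRG1 were called (4.99% of all genes), at 24 h BNIP3 (7.21%) and at 36 h EPAS1 and NDRG1 (8.41%). At 48 h EPAS1, ADM and NDRG1 were called (12.2%), at 72 h these and VEGFA (16.9%), and at 96 h EPAS1, EGLN1, ADM and NDRG1 (23.2%). With Activin+BMP4 there were 15 calls. None was made at 1 h (0.867% of all genes), EGLN3 and NDRG1 were called at 6 h (5.69%), and VEGFA was called at 12 h (6.82%) and 24 h (8.08%). ADM was called at 36 h (10.5%), EPAS1 and ADM at 48 h (15.8%), EPAS1, EGLN1, ADM, NDRG1 and BNIP3 at 72 h (21%), and EGLN1, NDRG1 and BNIP3 at 96 h (26.5%).

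Between consecutive times 12 of 140 comparisons of a gene were called. With BMP4, 2 of the 10 genes were called from 1 to 6 h (5.01% of all genes), none from 6 to 12 h (1.05%) or 12 to 24 h (1.7%), and 1 from 24 to 36 h (1.16%). Then 2 were called from 36 to 48 h (2.35%), 3 from 48 to 72 h (5.43%), with EPAS1, ADM and BNIP3, and 1 from 72 to 96 h (5.5%). With Activin+BMP4, NDRG1 was called from 1 to 6 h (5.11%), BNIP3 from 48 to 72 h (7.69%) and VEGFA from 72 to 96 h (3.76%). None was called from 6 to 12 h (1.69%), 12 to 24 h (2.22%), 24 to 36 h (2.65%) or 36 to 48 h (3.4%). The change of the treatment difference between 24 and 96 h was called for EPAS1, VEGFA, ADM and BNIP3, where 13.6% of all genes were called.

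**Figure D4:**
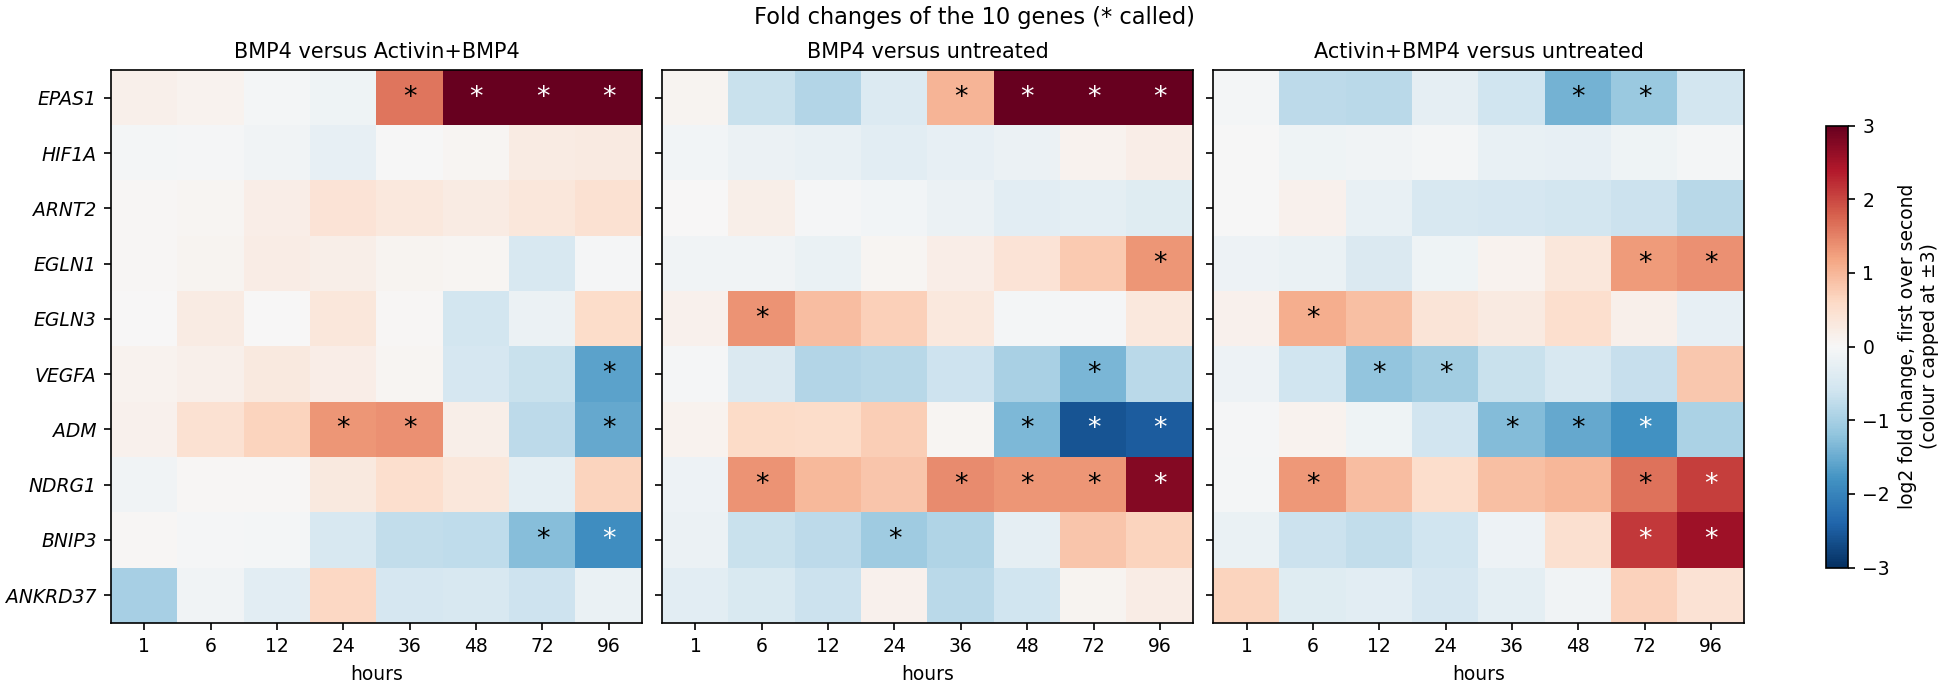
Log2 fold changes of the 10 genes (rows) by hour (columns) for BMP4 over Activin+BMP4, BMP4 over untreated and Activin+BMP4 over untreated cells, with red for higher, blue for lower and asterisks for called genes. The colour is capped at 3, which EPAS1 exceeds with BMP4 from 48 h on (log2 6.26, 7.84 and 7.43 over Activin+BMP4), while HIF1A has no asterisk in any panel.

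The remaining HIF pathway was described with lists. Of the 15 genes of HIF machinery other than the 10, all were tested and 0 were called by edgeR between the treatments at 96 h, where 15.6% of all genes were, with a median log2 difference of 0.03 against 0.00 over all genes. HIF3A, a further alpha subunit gene, had 17.8, 18.3 and 20.8 CPM under BMP4 at 96 h and 30.02, 29.8 and 40.4 CPM under Activin+BMP4, but 20.1, 18.9 and 20.7 CPM under BMP4 at 24 h and 13.2, 12.9 and 14.4 CPM under Activin+BMP4. The libraries did not overlap at either time, and HIF3A was the 1 gene of the list for which the change of the treatment difference between 24 and 96 h was called (log2 -1.38 ± 0.12; edgeR quasi-likelihood test, Benjamini-Hochberg adjusted p = 1.51e-12). For this change 13.6% of all genes were called. SIAH2 was the single call between the treatments at 12 h, where 1.42% of all genes were called. It was lower with BMP4 and was not called without the libraries that stand apart. The 1 gene of the list called against untreated cells was CITED2, an inhibitor that competes with HIF for its coactivators. It was called with BMP4 at 48, 72 and 96 h, where 12.2%, 16.9% and 23.2% of all genes were called. It had 150.1, 152 and 144 CPM under BMP4 at 96 h, 81.8, 85.2 and 73.0 CPM under Activin+BMP4, and 65.3, 67.1 and 64.4 CPM in untreated cells. The BMP4 level was 2.27-fold above untreated cells (log2 1.18 ± 0.05) and 1.86-fold above Activin+BMP4 (log2 0.90 ± 0.05; edgeR quasi-likelihood test, Benjamini-Hochberg adjusted p = 6.80e-19), the second under the threshold. VHL, which captures hydroxylated HIF, had 70.3 ± 1.11 CPM under BMP4, 66.9 ± 3.55 CPM under Activin+BMP4 and 61.3 ± 0.622 CPM in untreated cells.

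Of 28 tested genes in a list of other HIF targets, 2 were higher with BMP4 than with Activin+BMP4 at 96 h and 2 were lower, a share near the 15.6% of all genes called there, with a median log2 difference of -0.21. The higher genes were LOX, an enzyme that crosslinks collagen, and INHBA, which encodes the activin A subunit. LOX had 25.1, 21.5 and 17.3 CPM under BMP4 and 2.37, 1.91 and 1.71 CPM under Activin+BMP4 at 96 h. INHBA had 1506 counts in the 3 BMP4 libraries and 3 counts in the 3 Activin+BMP4 libraries. Among the lower genes AK4, a mitochondrial adenylate kinase, had 31.0 ± 1.14 CPM under BMP4 and 63.2 ± 4.94 CPM under Activin+BMP4. The other was PPFIA4, under 5 CPM in both treatments and named after its values were seen. Without the libraries that stand apart 2 genes of the list were called higher and 0 lower.

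Of 19 glycolytic HIF targets 2 were higher with BMP4 at 96 h and 1 was lower, again a share near the 15.6% of all genes, with a median log2 difference of -0.13. PFKP, a phosphofructokinase, had 180.1, 174 and 143 CPM under BMP4 and 47.4, 43.4 and 56.4 CPM under Activin+BMP4. SLC2A3, the glucose transporter GLUT3, had 1178, 1221 and 1122 CPM under BMP4 and 3042, 3178 and 2255 CPM under Activin+BMP4. The counts were 4 higher and 1 lower without the libraries that stand apart. PDK1, a kinase that restrains entry of pyruvate into the mitochondrion, was called higher than in untreated cells in both treatments at every time from 24 h on. At 96 h it had 101 ± 5.65 CPM under BMP4 and 137 ± 18.0 CPM under Activin+BMP4, against 40.5 ± 0.204 CPM in untreated cells.

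**Figure D5:**
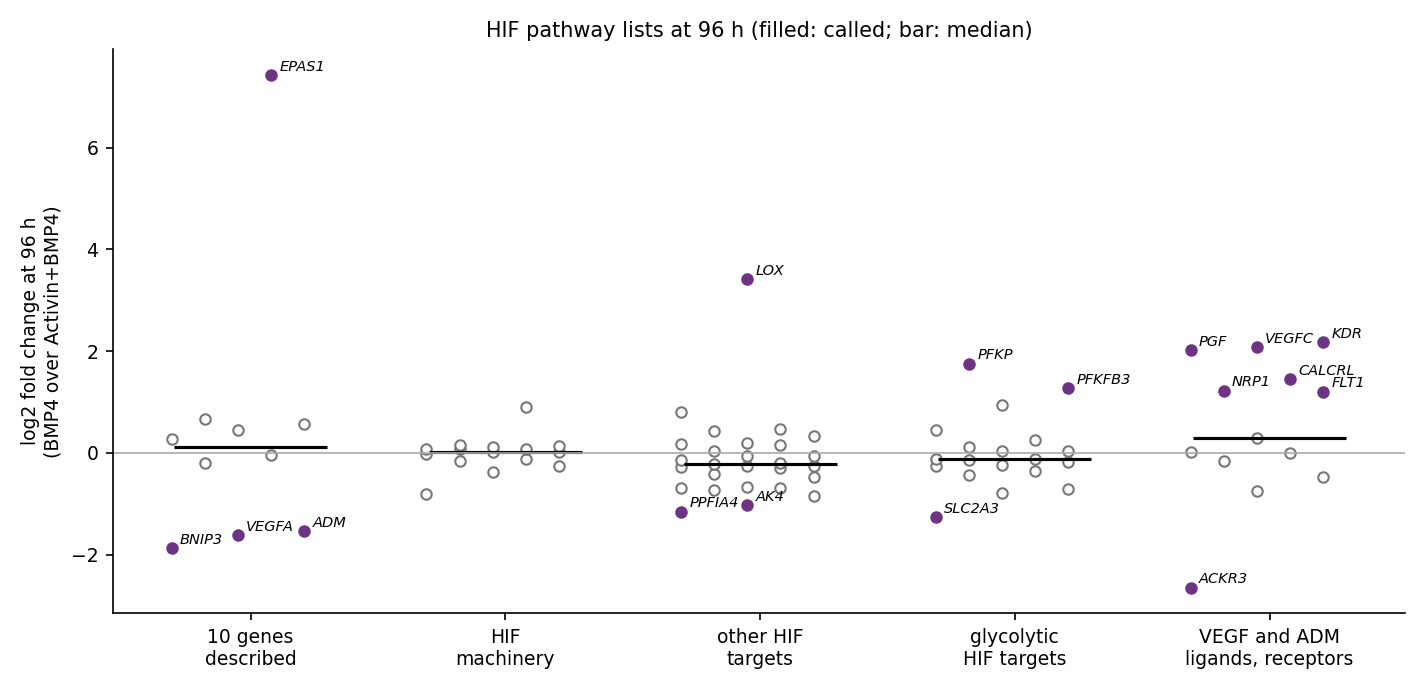
Log2 fold changes of BMP4 over Activin+BMP4 at 96 h for the 10 genes and 4 lists of the HIF pathway, 1 point per tested gene, filled where called, with a bar at the median of each list. INHBA is left out because its Activin+BMP4 libraries held 3 counts; EPAS1 stands at 7.43, and the medians of the lists lie between -0.21 and 0.29.

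Markers of amnion climbed with BMP4 over the hours in which EPAS1 did, but had also been raised earlier and in both treatments. The summed level of 12 amnion markers was already 218 to 224 CPM under BMP4 and 151 to 193 CPM under Activin+BMP4 at 6 h, when EPAS1 was not above untreated cells. At 24 h it was 252 to 269 CPM under BMP4 and 156 to 164 CPM under Activin+BMP4. It was 298 to 322 CPM at 36 h with BMP4 and 149 to 154 CPM under Activin+BMP4, and at 48 h 590 to 610 CPM under BMP4 and 143 to 155 CPM under Activin+BMP4. At 72 h it was 1739 to 1886 CPM under BMP4 and 94.6 to 118 CPM under Activin+BMP4. At 96 h the sums were 1815 to 2064 CPM under BMP4, 74.7 to 96.3 CPM under Activin+BMP4 and 38.4 to 43.6 CPM in untreated cells. Of the 12, 11 were called higher with BMP4 than with Activin+BMP4 at 96 h and 0 lower, where 15.6% of all genes were called. TFAP2B was at 0 counts with Activin+BMP4 at 96 h, and WNT6 in untreated cells. VTCN1 is in this list and also among the genes nearest to EPAS1. Mesoderm markers also climbed with BMP4, and to lower levels with Activin+BMP4. Their 12 genes summed to 74.3 to 79.4 CPM at 24 h, 143 to 166 CPM at 36 h, 298 to 312 CPM at 48 h and 587 to 643 CPM at 72 h under BMP4. By 96 h their sum was 1131 to 1280 CPM under BMP4, 76.8 to 93.4 CPM under Activin+BMP4 and 16.4 to 17.6 CPM in untreated cells. Of the mesoderm markers 11 were likewise called higher with BMP4 than with Activin+BMP4 at 96 h and 0 lower. At 48 h 3 were higher and 5 lower, where 9.25% of all genes were called. The part of amnion-like or mesoderm-like cells in the EPAS1 result was not tested.

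Other cell types in which EPAS1 or VEGF receptors are known were checked in the same way. Of 12 endothelial markers 9 were tested at 96 h, where 15.6% of all genes were called between the treatments. With BMP4 2 were higher (TEK and SOX7) and 3 lower (CLDN5, SOX18 and VWF). The summed level of the 12 was 91.2 to 103 CPM under BMP4, 108 to 123 CPM under Activin+BMP4 and 70.6 to 71.6 CPM in untreated cells. EMCN was at 0 counts in the untreated and the Activin+BMP4 96 h libraries. Trophoblast markers were low, with sums of 36.9 to 48.0 CPM under BMP4 at 96 h, 4.49 to 5.15 CPM under Activin+BMP4 and 2.05 to 2.10 CPM in untreated cells, and with PSG1 at 0 in all 3 groups. Of the 12 trophoblast markers 5 were tested at 96 h, beside the same 15.6% of all genes called. PAPPA2 and KRT23 were called higher with BMP4 and ERVW-1 lower. Without the libraries that stand apart 4 were higher and 1 was lower. With BMP4 at 48 h the trophoblast sum was 2.98 to 4.32 CPM and EPAS1 was at 113 ± 3.95 CPM. The part of endothelial-like or trophoblast-like cells in the EPAS1 result was not tested.

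On the Activin+BMP4 side, where BNIP3, VEGFA and ADM were higher at 96 h, the markers that stood high were those of definitive endoderm. Their 12 genes summed to 256 to 317 CPM under BMP4, 3536 to 4711 CPM under Activin+BMP4 and 7.63 to 9.01 CPM in untreated cells. At 48 h the sum was already 207 to 210 CPM under BMP4 and 2482 to 2619 CPM under Activin+BMP4, while VEGFA was then at 20.4 ± 0.921 CPM under BMP4 and 28.8 ± 1.34 CPM under Activin+BMP4. The part of these cell types in the results was not tested.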

How the data were processed

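Whole-number counts per gene in 51 libraries were deposited by the authors in a single table, and whether they are read counts or rounded estimates is not stated. The submitters' processing notes name cutadapt 1.5, STAR 2.5.2a, RSEM 1.3.0 and GRCh38, without roles. Annotation release, strand setting and filters are not given in the sources used here. Totals were 22788905 to 30354633 counts, 56948 of 58051 rows had a symbol in the table of gene names, and 0 columns belonged to no sample. Counts were analysed as deposited with edgeR 4.0.16 in R 4.3.3. The filter filterByExpr (minimum count 10, minimum total 15) kept 19603 genes, all 10 described here among them. The scaling factors (trimmed mean of M values) ran from 0.966 to 1.03. A single quasi-likelihood fit with a mean per group gave 39 comparisons, each adjusted over all genes by Benjamini-Hochberg. The ratio of EPAS1 to HIF1A used a prior count of 0.5. Exon lengths and overlaps come from GENCODE on GRCh38, and sequences from RefSeq. The fit was also run on simulated counts with the same spread for every gene, where only genes of higher counts were changed, in a single group. That run does not cover genes of low counts or the spread of these data.

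The 10 genes, lists and tests were chosen with earlier results of these data known. The rule for naming took the 10 genes and allowed any gene of the lists of HIF machinery and of VEGF and ADM ligands and receptors, up to 4 called genes of other lists with the largest change (no overlap of libraries, and 5 CPM or more where higher), leading markers of the marker lists, and the 6 genes nearest to EPAS1 and to HIF1A among those with a group mean of at least 10 CPM and a range of at least 1 on the log2 scale. From the list of other HIF targets 1 gene was left out afterwards and is not reported here. Replicate numbers did not pair the libraries. Alternatives were other scalings and filters, DESeq2 1.42.0, only the groups compared, a replicate block, each library left out and, added after seeing the data, leaving out the 3 libraries that stand apart, defined by a chi-square distance to both others at least 3 times the distance between those.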

Additional observations from a re-analysis of the deposited data

Results flagged for a closer look

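For 4 genes the difference between BMP4 and Activin+BMP4 itself changed between 24 and 96 h, by a test of that change in the fit over all genes (edgeR quasi-likelihood). EPAS1 moved by 7.56 on the log2 scale (Benjamini-Hochberg adjusted p = 2.82e-27), from overlapping libraries at 24 h to the BMP4 libraries being far above at 96 h. ADM moved by -2.85 (edgeR adjusted p = 8.98e-18), being higher with BMP4 at 24 h and lower at 96 h. VEGFA moved by -1.81 (edgeR adjusted p = 2.70e-20) and BNIP3 by -1.40 (edgeR adjusted p = 1.35e-09), both toward lower levels with BMP4. These changes were log2 7.45 to 7.76, -3.11 to -2.67, -1.88 to -1.76 and -1.51 to -1.23 for EPAS1, ADM, VEGFA and BNIP3 over 20 alternatives each.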

How the results depend on the processing

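Over 8 other settings no called value of the 10 genes changed sign and none of the calls was lost. The number of calls was 10 between the treatments under each library left out, 15 to 17 for BMP4 and 15 to 16 for Activin+BMP4 against untreated cells, 12 to 13 between consecutive times and 4 for the change between 24 and 96 h. With each library left out, 5 of 2400 values lost their call, namely EPAS1 at 36 h against untreated cells in 4 cases and BNIP3 at 24 h in 1. Fitting the replicate number as a block left all 390 values on their side of the threshold, with 10, 16, 15, 12 and 4 calls. Same-numbered libraries deviated together over 0.1 in 7 of 24 pairs (r -0.55 to 0.44, median 0.01), so the numbers are not read as pairs. Without scaling factors EGLN3 was also called from 1 to 6 h with Activin+BMP4 (log2 1.02) and NDRG1 at 12 h with BMP4 against untreated cells (1.01). Without the 3 libraries that stand apart EPAS1 was also called lower at 12 h with BMP4 than in untreated cells (-1.09), and ANKRD37 lower at 6 than at 1 h with Activin+BMP4 (-1.02; -1.01 with no filter and -1.03 with only the groups compared). Asking for 1 CPM in 3 or more libraries and a mean of at least 1 CPM over all libraries left out ANKRD37. This filter tests fewer genes and lowered the count over all genes by more than 1.5 times in 34 of 39 comparisons, for example to 1808 of 3052 at 96 h and to 1116 of 1814 at 48 h between the treatments. At 1 h the count between the treatments was 1, against 148 without a filter, 19 with only the groups compared and 7 with DESeq2, and at 6 h it was 99, against 243 without a filter. Against untreated cells at 1 h it was 238 with BMP4, against 401 without a filter and 139 without BMP4 1 h replicate 1, and 170 with Activin+BMP4, against 294 without a filter. The difference in the ratio of EPAS1 to HIF1A, with each library left out, stayed within 1.49 to 1.76 at 36 h, 6.15 to 6.25 at 48 h, 7.53 to 7.63 at 72 h and 7.03 to 7.36 at 96 h. Group levels near 1 CPM, as for ANKRD37, leave differences under 2-fold unresolved at this depth.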
